A study of Mus musculus with 6 samples.

Results

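The STEAP genes encode a small family of metalloreductases, and STEAP1, STEAP2 and STEAP4 lie on the long arm of chromosome 7 with a group of unrelated genes at band 7q21. RNA-Seq counts of 10 genes are described here, of 58735 in the deposited table: 5 STEAP genes (STEAP1, STEAP2, STEAP3, STEAP4 and STEAP1B) and 5 others from the STEAP1 and STEAP2 locus (CFAP69, DPY19L2P4, AC002064.2, AC002064.1 and FAM237B). They were compared between parental 22Rv1 cells given vehicle (3 libraries) and the 22Rv1 BL-B01D1_R subline (3 libraries), which had been exposed to rising concentrations of BL-B01D1 until it was resistant. The 22Rv1 line derives from a human prostate carcinoma, and BL-B01D1 is a bispecific antibody-drug conjugate against EGFR and HER3 with a cytotoxic payload. The subline comes from 1 selection, and the sources used here do not say whether the drug was still present at harvest, so selection, drift and drug exposure cannot be told apart. The labels do not state separate cultures within a line, so the spread between libraries may be technical.

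The genes were chosen by name, with their fold changes between the lines in these same counts already known. Their levels and fold changes are therefore given as a description, with no test, whereas the neighboring genes, taken by position, and the genes of the pathway lists were tested in the fit over all genes. The lists group genes by function, but were also written with earlier results of these data known.

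STEAP2, STEAP3 and STEAP4 reduce ferric iron and cupric copper: an intracellular domain takes electrons from NADPH, and a flavin and a heme in the membrane domain pass them to the metal at the other face. STEAP1 has the membrane domain but lacks the NADPH-binding domain, and assembles with other family members. STEAP3 is the endosomal ferrireductase of the transferrin cycle in red cell precursors, STEAP1 and STEAP2 are enriched in prostate and prostate cancer, and STEAP1 is itself a target of antibody-based drugs.

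Total counts ranged from 13821639 to 17251491 per library, at which 3 counts correspond to between 0.174 and 0.216 CPM (counts per 1000000, with a TMM-adjusted library size). Replicate libraries differed by more than sampling noise (a chi-square of 1.77 to 2.46 per degree of freedom within a line), so all 6 were kept as separate samples. All 8 luminal prostate markers were expressed, with a summed level of 2496 to 2569 CPM in parental and 2484 to 2543 CPM in resistant libraries. The basal, leukocyte, endothelial and adipocyte markers were too low to test, and KRT5, CD3E and CDH5 were listed at 0 in every library. Of the 4 fibroblast markers, 3 were measured, with a sum of 110.6 to 114.4 CPM in parental and 39.0 to 43.4 CPM in resistant libraries. LUM made up most of it (96.0 and 28.8 CPM), and COL1A2 had at most 2 counts in any library. Of the 4 neuroendocrine markers, CHGA and SYP were measured, with a sum of 135 to 149 CPM in parental and 109.9 to 117.5 CPM in resistant libraries, and INSM1 had at most 1 count in any library. CHGA fell from 39.4 to 8.18 CPM (log2 fold change −2.26, SE 0.087, edgeR FDR 2.49e-24), and SYP had 103 and 106 CPM (0.04, SE 0.045, edgeR FDR 0.531). The part of these markers in the STEAP differences was not tested. In such bulk RNA, a change in the number of cells of a kind and a change in RNA per cell cannot be told apart.

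STEAP1 and STEAP2 transcripts were both higher in the resistant subline, STEAP3 levels overlapped between the lines, and STEAP4 and STEAP1B were close to the limit of detection. STEAP1 (ENSG00000164647) is a protein-coding gene on the forward strand of chromosome 7 of hg38, from 90154375 to 90164829. It measured 133, 136 and 127 CPM in parental libraries 1, 2 and 3 and 370.5, 376 and 373 CPM in resistant libraries 1, 2 and 3. The libraries of each line lay close together, and the lines did not overlap. The log2 fold change was 1.49 (SE 0.032), a fold of 2.82, from 132 ± 4.60 CPM (SD, n = 3) to 373 ± 3.02 CPM (SD, n = 3).

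STEAP2 (ENSG00000157214) starts 2.76 kb after the end of STEAP1 on the same strand, from 90167590 to 90238137. It measured 368, 372 and 351 CPM in parental libraries 1, 2 and 3 and 621, 624 and 618 CPM in resistant libraries 1, 2 and 3. Every resistant library was above every parental library. The log2 fold change was 0.77 (SE 0.027), a fold of 1.71, which is under the fold threshold used for a call. Per length, the difference in level between the lines was 29.5 FPKM for STEAP2 and 148 FPKM for STEAP1.

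STEAP3 (ENSG00000115107) lies on chromosome 2, from 119223831 to 119265652 on the forward strand. It measured 13.8, 14.9 and 15.3 CPM in parental libraries and 15.6, 15.2 and 13.6 CPM in resistant libraries. The lines overlapped, and the log2 fold change was 0.02 (SE 0.098) with a 95% interval of −0.18 to 0.22.

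STEAP4 (ENSG00000127954), which encodes a metalloreductase best known from fat tissue and inflammation, is on the reverse strand of chromosome 7 from 88270892 to 88306891, with 1847 kb between its end and the start of STEAP1. Its counts were 15, 6 and 5 for parental and 20, 2 and 8 for resistant libraries, or 0.529 ± 0.295 CPM (SD, n = 3) and 0.612 ± 0.545 CPM (SD, n = 3). Library 1 was the highest of both lines, the lines overlapped, and the gene was too low to enter the test. STEAP1B (ENSG00000105889) is a STEAP1-like gene on the other arm of the chromosome, from 22419444 to 22727613. It had at most 2 counts in any library, so no difference was detectable at this depth, and reads from so similar a gene could be divided between it and STEAP1.

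**Figure D1:**
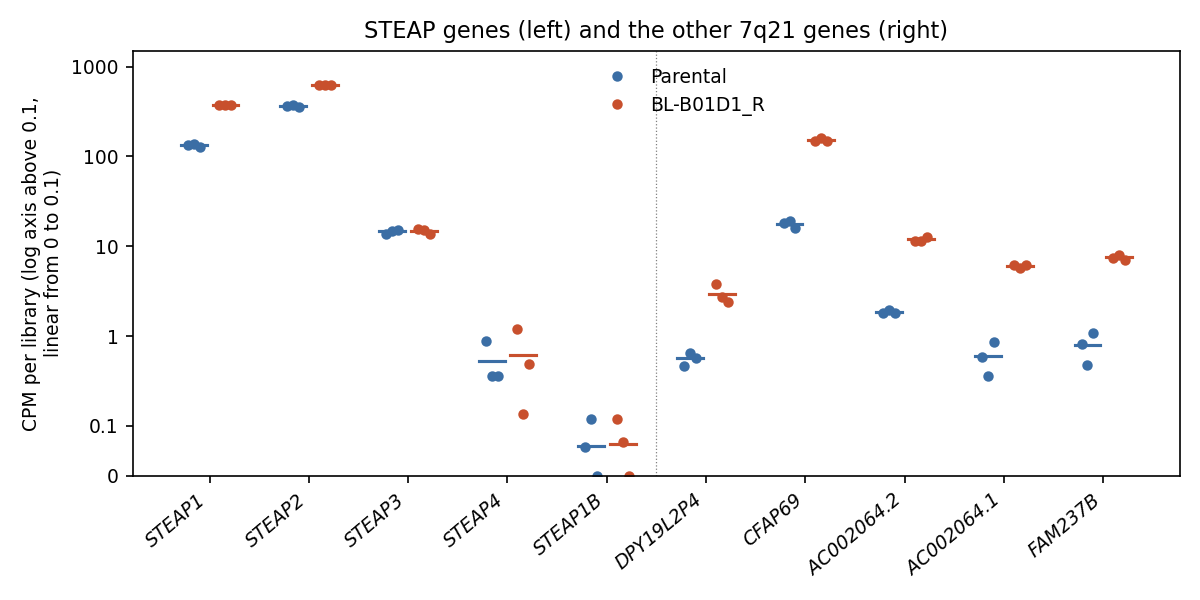
CPM of the 10 genes in each library (y axis, logarithmic above 0.1 CPM and linear under it). Points are libraries of parental (blue) and BL-B01D1_R cells (red), and bars are means of 3. The red points are above all blue points for STEAP1, STEAP2 and the 5 genes right of the dotted line, and overlap them for STEAP3, STEAP4 and STEAP1B. The genes were chosen with this contrast known, so the separation is a description. The share of all tested genes that separate in this way is not given here.

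Levels of different genes were compared as FPKM, which divides by the gene length listed by the authors (1625 bases for STEAP1 and 8715 for STEAP2). By counts alone STEAP2 was above STEAP1, with a STEAP1 to STEAP2 ratio of counts of 0.364 in parental and 0.601 in resistant cells. The order of these 2 genes therefore rests on the listed lengths. STEAP1 had the highest level of the family in both lines, 81.4 ± 2.83 FPKM (SD, n = 3) in parental and 229.6 ± 1.86 FPKM (SD, n = 3) in resistant cells. STEAP2 followed with 41.7 ± 1.27 and 71.2 ± 0.38 FPKM, and STEAP3 with 3.21 ± 0.17 and 3.25 ± 0.23 FPKM (SD, n = 3 each). STEAP4, at 0.047 and 0.054 FPKM, and STEAP1B, at 0.0091 and 0.0097 FPKM, came last, and their ranges overlapped each other in resistant cells but not in parental cells. The other places in the order were separated by more than the spread between libraries.

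STEAP1 took 64.4% ± 0.20 (SD, n = 3) of the summed STEAP FPKM in parental and 75.5% ± 0.16 (SD, n = 3) in resistant cells. STEAP2 took 33.0% ± 0.18 and 23.4% ± 0.088 (SD, n = 3 each). The ratio of STEAP1 to STEAP2 FPKM was 1.94, 1.97 and 1.94 for parental libraries 1, 2 and 3 and 3.20, 3.23 and 3.23 for resistant libraries 1, 2 and 3. This ratio does not depend on library scaling, and the lines did not overlap, but its value depends on the listed gene lengths. The summed STEAP FPKM was 126 ± 4.03 in parental and 304 ± 2.14 in resistant cells (SD, n = 3 each).

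**Figure D2:**
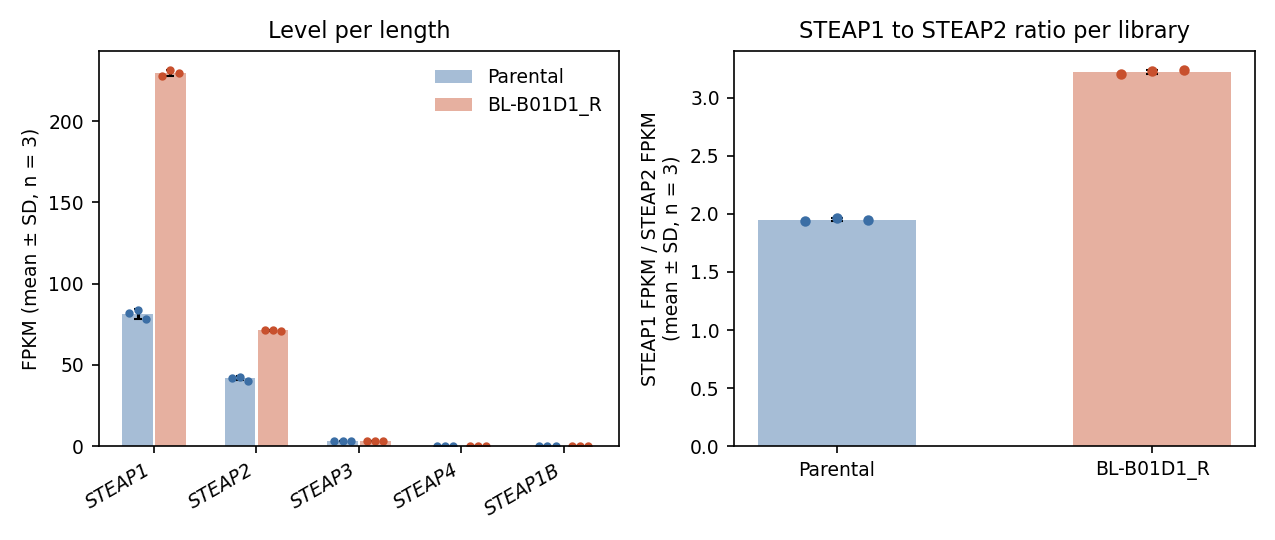
Left, FPKM of the 5 STEAP genes in parental (blue) and BL-B01D1_R cells (red); bars are means of 3 libraries, error bars are SD and points are libraries. Right, the ratio of STEAP1 to STEAP2 FPKM in each library, with a mean of 1.95 in parental and 3.22 in resistant cells.

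The 5 genes that share the locus without being STEAP genes were all higher in the resistant subline, by larger folds than STEAP1. CFAP69 (ENSG00000105792), which encodes a protein of cilia and of the sperm flagellum, starts 7.04 kb after STEAP2 on the same strand, from 90245174 to 90311063. It measured 18.0, 19.2 and 15.8 CPM in parental libraries 1, 2 and 3 and 149, 160.3 and 148 CPM in resistant libraries 1, 2 and 3. Its lowest resistant library was far above its highest parental library. The log2 fold change was 3.10 (SE 0.057), a fold of 8.59, and placed the gene at 35 of the 17142 tested genes when ordered by log2 fold change. Per length its level went from 1.93 ± 0.19 to 16.7 ± 0.73 FPKM (SD, n = 3 each), which is still under STEAP2.

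AC002064.2 (ENSG00000234459) is annotated as antisense to CFAP69, and its 4183 bases, from 90266034 to 90270216, fall inside that gene. It had 31, 33 and 25 counts in parental libraries and 190, 170 and 208 counts in resistant libraries. The log2 fold change was 2.68 (SE 0.16). The sources used here do not say whether counting used strand, so reads of CFAP69 and of this antisense gene cannot be told apart. There were 10.5 ± 0.76 AC002064.2 counts per 100 CFAP69 counts in parental cells and 7.84 ± 0.74 in resistant cells (SD, n = 3 each), with no overlap between the lines.

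AC002064.1 (ENSG00000225498), a long noncoding RNA gene, and FAM237B (ENSG00000283267), a protein-coding gene, follow CFAP69 and overlap each other by 4806 bases on opposite strands. AC002064.1 runs from 90312496 to 90322592 and had 10, 6 and 12 counts in parental libraries and 103, 85 and 99 counts in resistant libraries. FAM237B runs from 90316503 to 90321308 and had 14, 8 and 15 counts in parental libraries and 124, 117 and 115 counts in resistant libraries. In both, all resistant libraries were above all parental libraries. The log2 fold changes were 3.35 (SE 0.26) for AC002064.1 and 3.26 (SE 0.23) for FAM237B, from 0.60 ± 0.25 to 6.03 ± 0.23 CPM and from 0.79 ± 0.30 to 7.51 ± 0.43 CPM (SD, n = 3 each). The same uncertainty over shared reads applies to this pair.

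DPY19L2P4 (ENSG00000235436) is a transcribed pseudogene of DPY19L2 that lies before STEAP1, from 90119400 to 90125600. It had 8, 11 and 8 counts in parental libraries and 63, 40 and 39 counts in resistant libraries. All resistant libraries were above all parental ones, with library 1 the highest, and the log2 fold change was 2.39 (SE 0.33). STEAP2-AS1, the antisense gene that covers DPY19L2P4 and STEAP1 whole and 44046 bases of STEAP2, was too low to test. It had 1 count in each parental library and 10, 12 and 8 counts in resistant libraries. The resistant mean was 3.36 times a floor of 3 counts per parental library, without regard to the spread of the resistant counts. The same uncertainty over shared reads applies to STEAP2-AS1 and the genes it covers.

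Among the tested genes of the cluster, STEAP2 (364 CPM in parental cells) had the smallest fold, 1.71, followed by STEAP1 (132 CPM, fold 2.82). DPY19L2P4, AC002064.2, CFAP69, FAM237B and AC002064.1, with 17.7 CPM or less in parental cells, had folds of 5.23, 6.41, 8.59, 9.60 and 10.2. No relation of fold to level is read from these values, since the genes were chosen with their folds known and those low in parental cells could pass the filter on low counts through the resistant libraries. In all, 8 of the 10 genes were abundant enough to be tested, and 6 of these passed the threshold for a call (an FDR below 0.05 and an absolute log2 fold change above 1 in edgeR's quasi-likelihood test), all of them higher. Over all 17142 tested genes, 2.53% were called higher and 2.84% lower. Since the 10 genes were chosen with this contrast known, the count and the percentage stand side by side as a description.

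**Figure D3:**
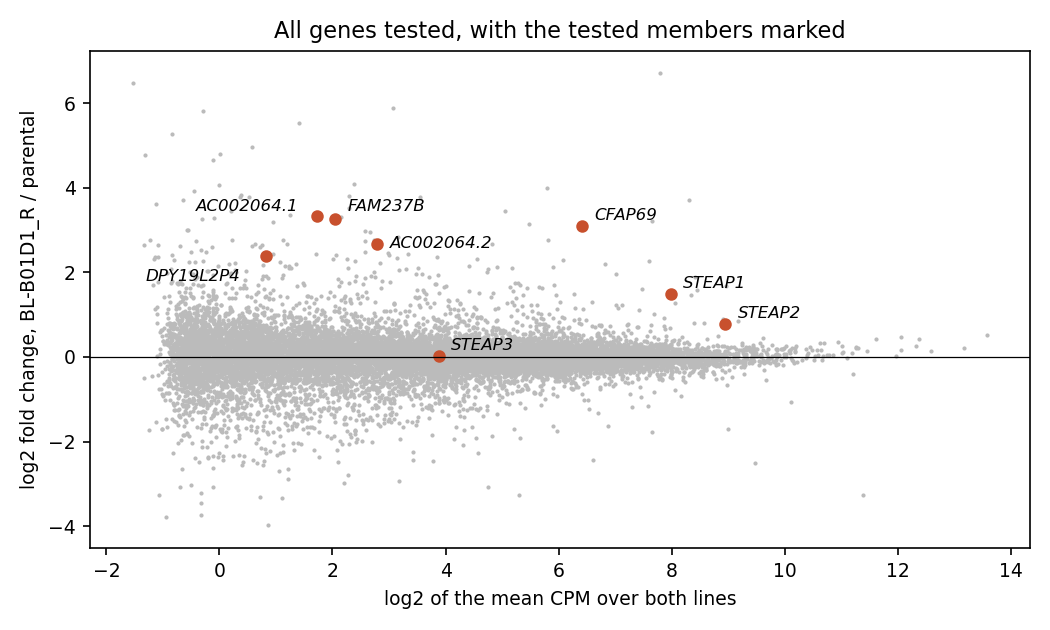
Log2 fold change of BL-B01D1_R over parental cells (y axis) against the log2 of the mean CPM of both lines (x axis) for the 17142 tested genes (grey), with the 8 tested genes of the STEAP family and its cluster in red. CFAP69 lies at 3.10, STEAP1 at 1.49, STEAP2 at 0.77 and STEAP3 at 0.02.

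The genes around the cluster were tested to see how far the difference reached. Within 1 Mb on either side of the span from STEAP4 to AC002064.1, the table lists 42 further genes, of which 12 were tested. Of these, 9 were higher and 1 was lower at an FDR below 0.05 in edgeR's test, whereas 17.1% of all tested genes were higher and 18.4% lower at that threshold. The median log2 fold change of the 12 was 0.26, against 0.0038 over all tested genes. The window reaches out from STEAP4, which was too low to test, so some of the 9 lie far from the cluster genes that rose. Among them, TP53TG1, CROT and ABCB4 start at −2829.15, −2808.69 and −2752.68 kb relative to the start of STEAP1. The 9 and the median therefore do not describe the surroundings of the risen genes alone.

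On the side of AC002064.1, the next tested genes had smaller log2 fold changes than the tested genes of the cluster. GTPBP10, which encodes a mitochondrial GTPase and begins 180.8 kb after the start of STEAP1, was the first tested gene beyond FAM237B. It had 1175, 1117 and 850 counts in parental and 1308, 1140 and 1288 counts in resistant libraries, and a log2 fold change of 0.26 (SE 0.049, edgeR FDR 2.58e-05). The genes after it were named after their values were seen. They were CLDN12, which encodes a claudin (log2 fold change 0.30, SE 0.047, edgeR FDR 1.13e-06), CDK14, a cyclin-dependent kinase (0.25, SE 0.047, edgeR FDR 4.06e-05), and FZD1, a Wnt receptor (0.37, SE 0.041, edgeR FDR 6.03e-10). Their log2 fold changes were all smaller than that of STEAP2, the least changed of the tested genes of the cluster (0.77). Since the cluster genes were chosen with their folds known, this step partly rests on that choice and is given as a description.

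On the other side, SRI, which encodes the calcium-binding protein sorcin was the nearest tested gene before STEAP4, with a log2 fold change of 0.19 (SE 0.049, edgeR FDR 0.00193). No gene that could be tested lies between SRI and DPY19L2P4, so the edge on this side is known only to within that distance. The 1 neighbor called was CROT, the peroxisomal carnitine octanoyltransferase, which lies on chromosome 7 from 87345681 to 87399795. It had 323, 314 and 263 counts in parental and 1095, 861 and 946 counts in resistant libraries, and a log2 fold change of 1.70 (SE 0.069, edgeR FDR 1.64e-23). Its neighbors TP53TG1, a noncoding RNA gene, and ABCB4, a phospholipid transporter, both named after their values were seen, had log2 fold changes of 0.85 (SE 0.10, edgeR FDR 4.47e-09) and 0.85 (SE 0.32, edgeR FDR 0.0328). DBF4, the activating subunit of a replication kinase, was the neighbor that fell, with a log2 fold change of −0.34 (SE 0.054, edgeR FDR 1.49e-06), and lies between CROT and SRI. RUNDC3B and SLC25A40, also named after their values were seen, lie between ABCB4 and SRI and did not pass the FDR threshold. Their log2 fold changes were 0.13 (SE 0.10, edgeR FDR 0.334) and −0.10 (SE 0.047, edgeR FDR 0.0975). Over the 899 tested genes of chromosome 7 that are no members, 191 were higher and 153 lower at an FDR below 0.05 in edgeR's test, with a median log2 fold change of 0.038.

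**Figure D4:**
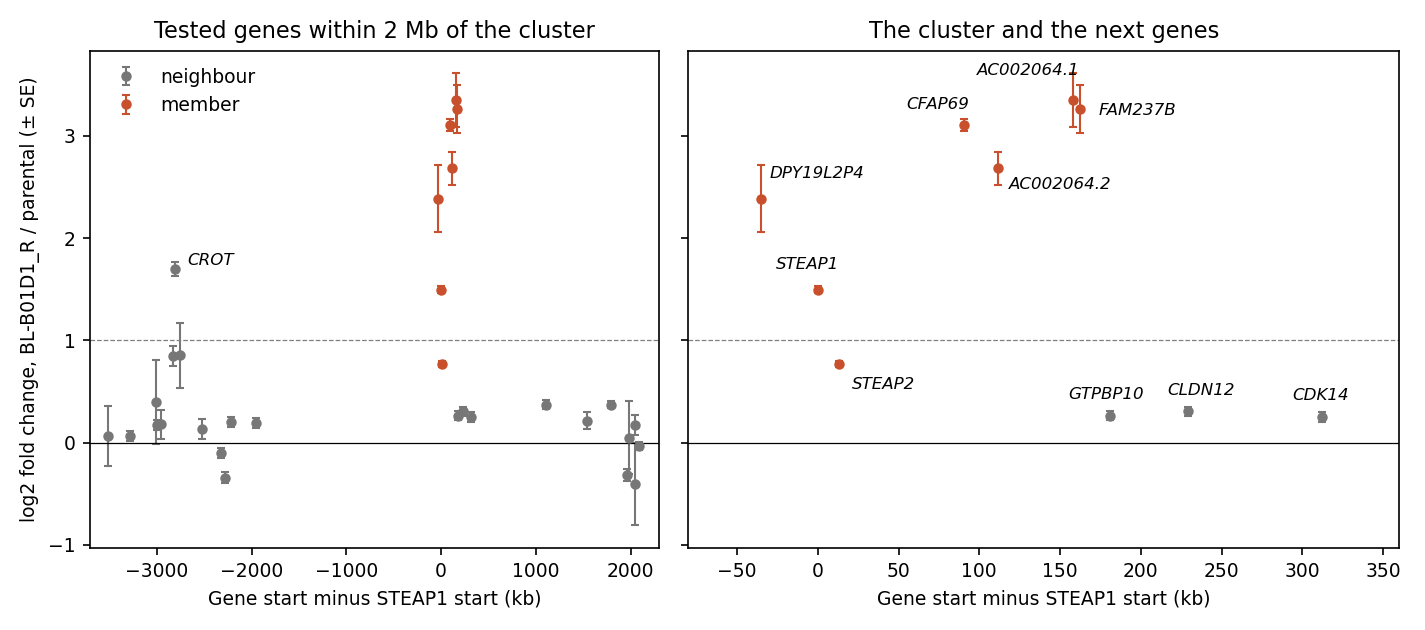
Log2 fold change of BL-B01D1_R over parental cells with its SE (y axis) against the start of each tested gene relative to the start of STEAP1 in kb (x axis), within 2 Mb of the cluster (left) and around it (right). Red points are cluster genes and grey points are neighbors; the dashed line is the fold threshold of a call. The values fall from 3.26 at FAM237B to 0.26 at GTPBP10, the next gene, a step that partly rests on the choice of the cluster genes.

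Iron uptake and reduction is the pathway in which STEAP proteins work. Of 17 genes listed for it, 13 were tested, 7 of them lower and 2 higher at an FDR below 0.05 in edgeR's test, with a median log2 fold change of −0.13. At that threshold, 18.4% of all tested genes were lower. TFRC, the transferrin receptor, fell from 573 to 460.3 CPM, a log2 fold change of −0.32 (SE 0.027, edgeR FDR 4.61e-13). SLC11A2, which carries ferrous iron out of endosomes, had a log2 fold change of −0.39 (SE 0.041, edgeR FDR 1.87e-10). LRP2, an endocytic receptor, was the gene called lower, at −1.21 (SE 0.15, edgeR FDR 1.17e-08). SLC39A14 and SLC39A8, a pair of metal importers named after their values were seen, moved apart, with log2 fold changes of −0.26 (SE 0.035, edgeR FDR 7.09e-08) and 0.73 (SE 0.039, edgeR FDR 4.60e-19). CYBRD1, another ferric reductase, had too few counts to be tested.

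Genes of iron storage, export and regulation included 5 that rose and 2 that fell among 14 tested of 19 listed (median log2 fold change 0.0098), which is 35.7% higher and 14.3% lower, against 17.1% and 18.4% of all tested genes. The ferritin subunits FTH1 and FTL rose, with log2 fold changes of 0.25 (SE 0.035, edgeR FDR 1.93e-07) and 0.18 (SE 0.031, edgeR FDR 1.26e-05). NCOA4, which delivers ferritin to the lysosome, rose by 0.32 on the log2 scale (SE 0.032, edgeR FDR 5.29e-11), and NEO1, a coreceptor in hepcidin control, fell by 0.26 on that scale (SE 0.054, edgeR FDR 0.000127). None of these reached the fold threshold of a call.

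In the mitochondrial iron, heme, copper and flavin lists, 0 genes passed the fold threshold of a call. Of the genes for mitochondrial iron and iron-sulfur assembly, 16 of 17 were tested, with 2 higher and 3 lower at an FDR below 0.05 in edgeR's test (median log2 fold change 0.072). SLC25A37, a mitochondrial iron importer, had a log2 fold change of 0.33, and FDX1, a ferredoxin, of −0.30. Of 17 heme genes, all tested, 3 were higher and 3 lower (median 0.056), among them BLVRA, a biliverdin reductase (log2 fold change 0.67, SE 0.056, edgeR FDR 4.29e-13), and HMOX1, the inducible heme oxygenase (−0.58, SE 0.19, edgeR FDR 0.0139). Of 13 copper genes, all tested, 3 were higher and 1 lower (median 0.12). The copper importer SLC31A1 was the lower one, at −0.21 (SE 0.045, edgeR FDR 0.000233), and the copper chaperone ATOX1 (0.30) and CUTC (0.23) were among the higher ones. Of 6 flavin supply genes, all tested, 2 were higher and 0 lower (median 0.19), RFK and FLAD1, the enzymes that make FMN and FAD from riboflavin (log2 fold changes of 0.21 and 0.17). Over these metal, heme and flavin lists together, 21.5% of 79 tested genes were higher and 20.3% lower, against 17.1% and 18.4% of all tested genes.

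STEAP4 and other STEAP genes are known to respond to androgen, so a list of androgen-related genes was set beside them. Of 16 listed genes found in the table, 15 were tested, and 9 were higher and 3 lower at an FDR below 0.05 in edgeR's test, with a median log2 fold change of 0.17. These are 60% higher and 20% lower, against 17.1% and 18.4% of all tested genes. KLK4, a kallikrein protease, was called higher, at 1.46 (SE 0.033, edgeR FDR 1.05e-32), and KLK3, which encodes PSA, had a log2 fold change of 0.91 (SE 0.21, edgeR FDR 0.000606) from 35, 53 and 39 counts to 87, 53 and 98 counts, with the lines tied at 53 counts in library 2 and apart only on the CPM scale. HOXB13, named after its values were seen, was among the 3 lower, at −0.48 (SE 0.029, edgeR FDR 2.29e-17). STEAP4 remained near the limit of detection in both lines.

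**Figure D5:**
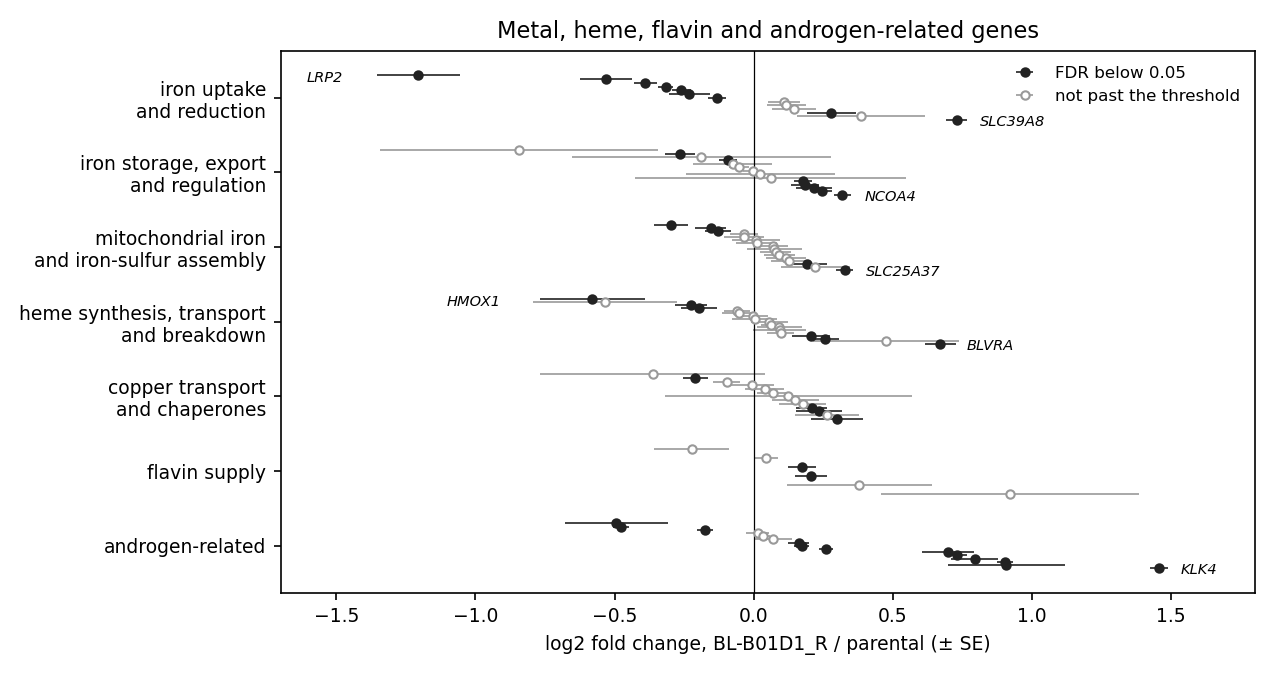
Log2 fold change of BL-B01D1_R over parental cells with its SE (x axis) for the tested genes of each list (y axis). Filled points passed an FDR of 0.05 in edgeR's test and open points did not; LRP2 lies at −1.21 and KLK4 at 1.46, the genes past the fold threshold.

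Relatives of the other cluster genes were also tested. Of 18 tested CFAP genes other than CFAP69, 5 were higher and 0 lower at an FDR below 0.05 in edgeR's test, and their median log2 fold change was 0.029. That is 27.8% higher, against 17.1% of all tested genes higher and 18.4% lower. CFAP45 was called higher, at 1.17 (SE 0.34, edgeR FDR 0.00546). Of 8 tested DPY19L genes and pseudogenes, 2 were higher (25.0%) and 0 lower, with a median of 0.16. DPY19L2, the parent gene of DPY19L2P4 and a gene of sperm head formation, was called higher, with 197, 187 and 152 counts in parental and 450, 405 and 440 counts in resistant libraries (log2 fold change 1.29, SE 0.087, edgeR FDR 5.91e-16). Because near-identical copies can share reads, the counts of DPY19L2 and DPY19L2P4 are uncertain. CFAP45 and DPY19L2 were named after their values were seen.

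The genes whose profile over the 6 libraries was nearest to that of STEAP2, the STEAP gene with the most counts, were FKBP8, PCSK1N, CAMK2D, SLC26A2 and STARD3NL. Their root mean square distances from STEAP2 in centered log2 CPM were 0.025 for FKBP8 and PCSK1N, 0.028 for CAMK2D, 0.031 for SLC26A2 and 0.032 for STARD3NL, and their log2 fold changes lay between 0.72 and 0.78. These profiles follow the difference between the lines, so the list names genes with a change of the same size.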

How the data were processed

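RNA-Seq of 6 libraries was analysed, 3 of parental cells and 3 of the resistant subline, grouped by their titles. Per the labels, whose processing notes name these tools, the authors mapped reads to hg38 with HISAT2 (2.0.5) and counted them per gene with featureCounts (1.5.0-p3). The labels also list fastp. The deposited values are raw counts, without normalization, beside gene position and another quantity listed by the authors, gene length in bases. The annotation release and the strand setting are not given in the sources used here. Mouse is the organism named in the labels, but 22Rv1 and the gene identifiers are human, so the genes were treated as human. No human sequence was used here.

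Genes were filtered with filterByExpr, scaled with TMM and tested in edgeR (4.0.16, under R 4.3.3) by its quasi-likelihood method, with Benjamini-Hochberg adjustment over 17142 genes. The SE is the log2 fold change divided by the square root of F, and the 95% interval uses the test's degrees of freedom. CPM and FPKM use TMM-adjusted library sizes. Floors of 3 counts cover counting error only. A list symbol that the table holds more than once was read from its first line. The number of unused columns of per-sample values was 0. The members and lists were chosen with earlier results of these data known. Named genes are the members, the called and the adjacent neighbors, and in each list the called genes, or else the 2 with the largest change among those past the FDR threshold, plus TFRC, FTH1, FTL, SLC11A2, CYBRD1, HMOX1, SLC31A1 and KLK3. Other genes the rule names are not reported here, and genes outside it are described as chosen after their values were seen. The 5 nearest profiles used log2 CPM with a prior count of 2. Alternatives were limma-voom (limma 3.58.1), DESeq2 (1.42.0), library size alone, no filter, a minimum of 10 counts in each library, a replicate block, a prior count of 5, a window of 2 Mb, TPM, and each library left out in turn. The scripts were tested on simulated data.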

Additional observations from a re-analysis of the deposited data

How the results depend on the processing

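Of 166 values computed under the alternatives for counts of genes and for STEAP levels, 149 stayed within 1.5 times the reported count or within the SD of the level. The TPM levels were set against FPKM means and SDs, so they fell outside through the unit alone. The tally therefore does not measure how far the levels depend on the processing. Requiring at least 10 counts in every library left 248 genes called higher and 287 lower (reported: 434 and 487) and 3 cluster genes called higher (reported: 6), since DPY19L2P4, AC002064.1 and FAM237B have fewer counts in a parental library and then drop out. A window of 2 Mb held 24 tested neighbors, of which 12 were higher (50%) and 2 fell. Within 1 Mb of the span from STEAP4 to AC002064.1, 9 of 12 were higher (75%) and 1 fell. The median log2 fold change of the neighbors was 0.18 within 2 Mb, against 0.26 within 1 Mb. With one library left out, genes called ranged from 415 to 450 higher and 471 to 493 lower, cluster genes called were 6 higher and 0 lower in every fit, neighbors past the FDR threshold ranged from 8 to 9 higher and 1 to 2 lower, metal, heme and flavin genes from 14 to 16 higher and 12 to 15 lower (reported: 17 and 16), androgen-related genes were 9 higher and 2 to 3 lower, and relatives of the cluster genes ranged from 5 to 7 higher and 0 to 1 lower. The second falling neighbor and the 1 falling relative appeared without parental replicate 3.

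As TPM, STEAP1 was 295 in parental and 789 in resistant cells, STEAP2 151 and 245, STEAP3 11.6 and 11.1, STEAP4 0.17 and 0.19, and STEAP1B 0.033 and 0.033, a unit with another total and the same order of genes. With library size alone, STEAP2 was 70.7 FPKM in resistant cells. Scaling by library size alone moved the median log2 fold change of all genes from 0.0038 to −0.012. Log2 fold changes kept their sign under every alternative run for the tested members other than STEAP3, which ranged from −0.026 to 0.075. They moved most for AC002064.1, from 2.82 with a prior count of 5 to 3.66 without parental replicate 3, while STEAP1 stayed between 1.47 and 1.52 and STEAP2 between 0.75 and 0.79.

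Both lines carry replicate numbers in the labels, but same-numbered libraries did not deviate together (Pearson's r across genes of −0.0081, −0.020 and −0.016). The main fit therefore used no pairing. Whether same-numbered libraries shared a culture or a preparation is not stated in the labels, and this check cannot decide it. With the replicate block, 418 genes were called higher and 471 lower, 6 cluster genes were called higher, and the named genes kept their side of the FDR threshold. Depth limits what can be said of STEAP4, STEAP1B and STEAP2-AS1. Without a filter, their log2 fold changes were 0.21 (SE 0.50), 0.033 (SE 1.62) and 3.19 (SE 0.82).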

Other observations

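When the tested genes were ordered along each chromosome, an ordering chosen after seeing the data, 15 genes in a row from ADAM22 to AKAP9 were higher at an FDR below 0.05 in edgeR's test, with a median log2 fold change of 0.37. Of these 15, 7 are genes of the STEAP cluster chosen with their rise known, so the length of this run and its place among the runs partly rest on that choice and are given as a description. The only other run of 15 was on chromosome 2, from CCDC115 to ARHGEF4, with a median of 1.03, and it holds POTEI and POTEJ. Within the chromosome 7 run, the genes from CFAP69 to FAM237B were 4 called higher in a row. All 4 were chosen with their rise known, so this shorter run and its place among the others rest on that choice. There were 7 runs of 4 or more genes called higher over all chromosomes, the longest of them 7 genes ending at PCAT14 on chromosome 22. Several runs hold pseudogenes or overlapping genes, which can share reads, and the run of the cluster includes the overlapping pairs described above.

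The following genes were named after their values were seen. Beyond 1 Mb, AKAP9, which encodes a Golgi and centrosome scaffold protein, had a log2 fold change of 0.37 (SE 0.034, edgeR FDR 4.59e-12), and CYP51A1, the lanosterol demethylase of cholesterol synthesis, had −0.31 (SE 0.057, edgeR FDR 2.24e-05). ABCB1, within 1 Mb of STEAP4, had 4, 3 and 7 counts in parental and 3, 4 and 4 counts in resistant libraries.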
